A study of Drosophila melanogaster with 2 samples.

Results

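A group of 104 genes, of 7629 genes measured in 84 single embryos of Drosophila melanogaster, had abundant maternal RNA at the start and little around the middle of the series. At its end they were again at 75% or more of the starting level. They were chosen from the measured values: a mean of at least 20 scaled UMIs over the embryos at pseudo-time positions 1 to 10, a mean over positions 50 to 58 below 25% of that, and a mean over positions 76 to 84 of at least 75% of it. UMIs are molecular tags, so that each RNA molecule is counted once, and a scaled UMI is a UMI count brought by the authors to the total of the smallest library. Levels are therefore relative to all RNA counted in an embryo, and a change in its total RNA is not seen. Of the 2951 genes with a mean of at least 20 at the start, 896 fell below 25% in the middle, and 429 of these were also below 25% at the end. These 429 genes, called lost and not regained, are the comparison group here.

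All embryos were wild type, of the inbred DGRP-737 line, kept at 25 °C, and came from cages A and B, where plates were taken directly (0 to 1 h) or aged by 1 h or 2 h more. RNA of each embryo was sequenced with a modified CEL-Seq2 protocol, which primes on the poly(A) tail and counts the 3′ end of transcripts, and DNA of the same embryo was used to determine its sex. The study ordered the embryos by transcriptome similarity (pseudo-time) and divided them into clusters, and each embryo is a replicate here. Cluster 1 held 29 embryos (10 at positions 1 to 10 and 19 at positions 11 to 29), cluster 2 held 11, cluster 3 held 6, cluster 4 held 3, cluster 5 held 9 (positions 50 to 58), cluster 6 held 7, cluster 7 held 10 and the last cluster, called cluster 9, held 9 (positions 76 to 84). The clusters were made from the same expression values, so tests between them describe how large and how regular a change was along an order that the genes themselves helped to set.

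The egg is loaded by the mother with RNA that directs the first nuclear divisions. These transcripts are cleared in waves, first by maternal factors and later by factors made by the embryo, such as zygotic microRNAs, while transcription of the embryo's own genome begins in a minor and then a major wave around the mid-blastula transition. Many housekeeping genes are used by mother and embryo alike, and for such genes a steady RNA level can conceal the exchange of maternal for zygotic molecules. The counting used here does not tell a maternal from a zygotic molecule of the same gene, so the later RNA is called regained only by its level. In whole embryos, fewer cells with a transcript and less of it per cell cannot be told apart.

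Between 274425 and 2104120 UMIs per embryo (median 931600) and 5933 to 7389 genes per embryo were counted. The summed level of 12 maternal transcripts such as bcd, osk and nos had a median of 2104 scaled UMIs at positions 1 to 10, 254 in cluster 5 and 107 in cluster 9. The sum of 8 early zygotic genes such as scw, nullo and halo had medians of 21.5, 1942 and 107 in these groups. The sum of 6 transcripts known from pole cells, some of which are also on the maternal list, was 738, 222 and 226. None of 12 eggshell and follicle cell genes was in the table. The maternal reference transcripts were thus still low in cluster 9, where the 104 genes are high by their selection.

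The 104 genes together held 2.04% ± 0.103 of the UMIs of an embryo (mean and SD, n = 10) at positions 1 to 10. This share was 2.02% at positions 11 to 29, and clusters 2, 3 and 4 had mean shares of 1.76%, 1.38% and 0.662%. It was lowest in cluster 5, at 0.299% ± 0.0482 (n = 9), and then went from 0.434% and 0.715% in clusters 6 and 7 to 2.26% ± 0.128 (n = 9) in cluster 9. The embryos of cluster 9 lay between 2.08% and 2.52%, above the 0.553% to 1.11% of cluster 7 without overlap. By contrast, the 429 genes that were not regained held 14.1% of the UMIs at positions 1 to 10, 1.06% in cluster 5 and 1.16% in cluster 9. The shares at positions 1 to 10, in cluster 5 and in cluster 9 follow from the way the genes were chosen. Those of cluster 4 were 0.775% (95% Wilson interval 0.758% to 0.793%), 0.735% (0.715% to 0.755%) and 0.475% (0.453% to 0.497%) in its 3 embryos, in the order of pseudo-time, and intervals cover counting error only.

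**Figure D1:**
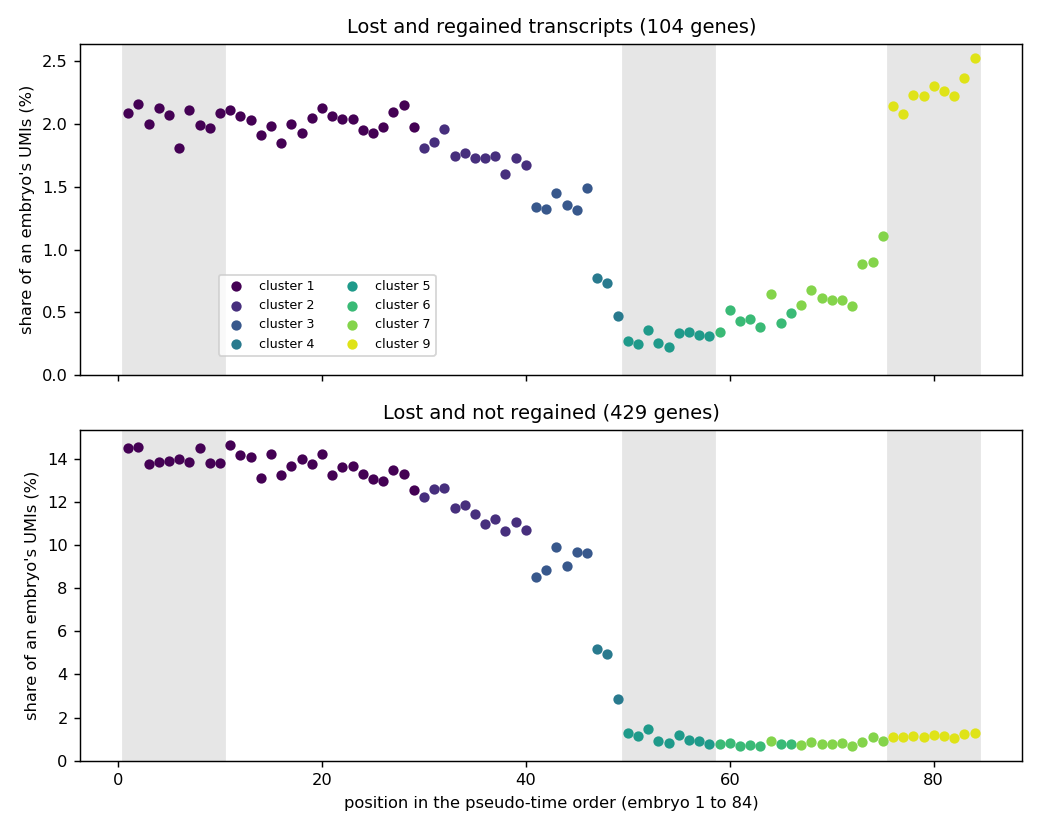
Share of the UMIs of each embryo (%) held by the 104 genes lost and later regained and by the 429 genes lost and not regained, against pseudo-time position; each point is 1 embryo and the shaded windows are those the selection used. The 104 genes returned to between 2.08% and 2.52% in cluster 9, while the others stayed near 1.16%.

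Within the selection windows the genes differed widely. Their mean at positions 1 to 10 had a median of 36.2 scaled UMIs and reached 259 (RnrS), with 68 genes below 50 and 13 genes at 100 or more. In the middle window they kept between 1.32% (WRNexo) and 24.9% (RapGAP1) of that level, with a median of 14.3%, and 31 genes were below 10%. At the end they were between 75.0% (yki) and 298% (zfh1) of the first level, with a median of 99.97%, so 52 genes ended above and 52 below their own starting level, and 11 ended more than 1.5 times above it. In each of the 104 genes, every embryo of the middle window was below every embryo of the first and of the last window, which the selection makes likely and which is given as a description. Close to the limits, Tre1, blot and eIF3j just reached the first level needed (20.95, 21.79 and 22.04), and Gmap, Rb97D and syd did not (19.3, 19.27 and 18.98). RapGAP1, Hem and Mcm5 were just low enough in the middle (24.9%, 24.4% and 23.9%), and rdx, Cnx99A and AhcyL1 were not (25.2%, 25.4% and 25.4%). At the end yki, dre4 and NKAIN were just inside (75.0%, 75.1% and 75.2%), and Cmtr1, gammaCOP and NAT1 just outside (74.4%, 74.3% and 74.1%).

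Of the 104 genes, 103 were found in the Ensembl annotation of assembly BDGP6 (version 6.54), all protein coding, and calypso was not found. The X chromosome held 17 of them (16.5% of those annotated, against 17.5% of all annotated genes in the table), 2L 21, 2R 24, 3L 19 and 3R 22. The longest transcript had a median length of 2669 bases, against 2269 for the genes not regained and 2426 for the 2951 genes with a mean of at least 20. Another gene on the same strand overlapped 14 of the 104 genes, among them Myc, oys, eIF2gamma, CG33303 and wts, and for these the division of reads between the partners is uncertain.

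The time at which each gene was lost and came back was read from a running median over 5 embryos. The level fell below 50% of the starting level at a median position of 47, between positions 30 and 50: this happened within clusters 2, 3, 4 and 5 for 27, 15, 49 and 13 genes. It came back to 50% at a median position of 75, between 60 and 78: the return lay within clusters 6, 7 and 9 for 5, 52 and 47 genes. A gene stayed below 50% over a median of 28 embryos, with a range of 11 to 42. The first genes to fall were mib1 at position 30, crim at 31, and Papss and eIF2beta at 33, whereas RapGAP1, oys and blot were the first to come back, at position 60. Positions are ranks of embryos and not times.

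**Figure D2:**
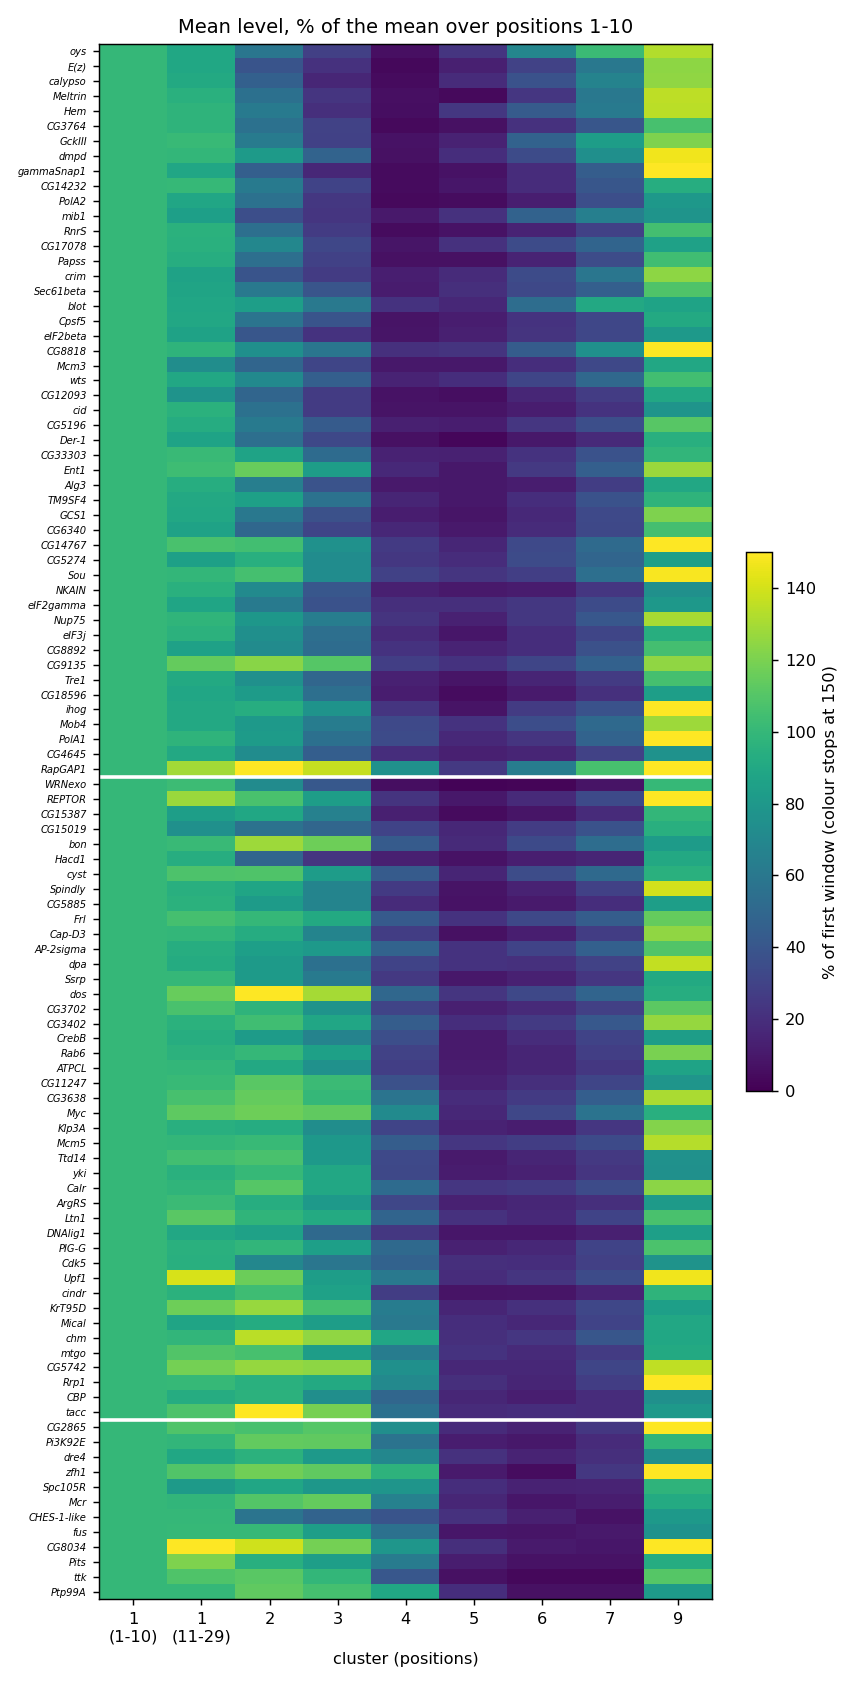
Mean level of each of the 104 genes (rows) in the 9 groups of embryos (columns), as % of its mean at positions 1 to 10, with the colour scale ending at 150%. White lines divide the genes into 49 that were higher in cluster 7 than in cluster 4, 43 not called and 12 that were lower; the upper genes are already low in cluster 4 and the lowest ones only from cluster 5 on.

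The question of how regular the loss was can be described in the 56 embryos that the selection did not use (positions 11 to 49 and 59 to 75). These embryos lie between the selection windows on the same pseudo-time order. The 104 genes were selected for a fall from the first to the middle window. More falls among them than among all genes are therefore expected, and the tests describe their steps and sizes. Genes were called with edgeR's quasi-likelihood F test at a Benjamini-Hochberg adjusted p below 0.01, over 7292 genes, and a fold change above 2. All 104 genes passed the filter on low counts, at least 3 counts in at least 5 of these embryos. From positions 11 to 29 to cluster 4, 79 of the 104 genes fell, against 21.3% of all genes tested and 329 of the 429 genes not regained. Their log2 changes ran from -4.64 to -0.04 with a median of -1.79, while the median of all genes was 0.09. Without the limit on the fold, 94 of the 104 genes were called lower, against 25% of all genes. Most of the calls came with the last step: 5 of the genes fell from positions 11 to 29 to cluster 2 (3.46% of all genes did), 12 from cluster 2 to cluster 3 (2.76%), and 62 from cluster 3 to cluster 4 (12.7%), with median log2 changes of -0.19, -0.36 and -1.27. Of the 67 genes called at any of the 3 steps, 51 were first called at the last one, and the count at the first step was near the share of all genes. The 5 earliest were E(z), crim, eIF2beta, mib1 and calypso. No gene of the 104 was called higher at these steps or over the whole span by edgeR or DESeq2. Of all genes, 0.933%, 1.26% and 2.5% were at the 3 steps and 3.78% over the span. The selection makes a rise here unlikely, and none of the 429 genes not regained was called higher by edgeR either. At an unadjusted p below 0.05 in edgeR, 5 of the 104 genes were higher in cluster 2 than at positions 11 to 29, and 0 at the later steps. Of all 7292 genes, 934 were higher at the first step, and 539 and 959 at the later ones.

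The regain before the last cluster was tested between clusters 4, 6 and 7. The 104 genes were selected for a high level in the last cluster and the 429 genes for a low one. More rises among the 104 genes than among the 429 or all genes are therefore expected in part from the selection. From cluster 6 to cluster 7, 23 of the 104 genes rose, against 4.29% of all genes and 13 of the 429 genes not regained. None of the 104 was called lower by edgeR or DESeq2 (0.946% of all genes). At an unadjusted p below 0.05 in edgeR, 1 of the 104 genes was lower, against 559 of all 7292 genes. None of the 429 genes was called lower by edgeR either. The median log2 change of the 104 genes was 0.81, against 0.24 for all genes. Without the limit on the fold, 79 of the 104 genes were called higher, against 12.1% of all genes. The embryo at position 75, the last of cluster 7, a male from cage B and the 0 to 1 h interval, had the highest share of its cluster, with 1.11% of its UMIs on the 104 genes (1.09% to 1.14%, Wilson), after 0.886% and 0.903% at positions 73 and 74. Without it 15 of the 23 genes were called, no other gene was, the median change was 0.72, and 64 genes were called with no limit on the fold. With library totals in place of the TMM factors (trimmed mean of M-values) used for scaling, 15 genes were called, against 213 of all 7292 genes.

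From cluster 4 to cluster 7, 49 of the 104 genes rose, against 28.7% of all genes, and 12 fell, against 18.8%. Only 17 of the 429 genes not regained rose and 294 fell. The groups of 104 and 429 genes were set apart by their levels in the last selection window. A contrast between them in the clusters just before it therefore follows in part from the selection. From cluster 4 to cluster 6, 27 of the 104 genes rose (19.5% of all genes) and 22 fell (20.2%), with a median log2 change of 0.02. With the TMM factors, both counts were near the shares of all genes. These comparisons share the 3 embryos of cluster 4, and the split depends on the scaling. With library totals 22 of the 104 genes rose and 36 fell from cluster 4 to 6, against 626 and 1961 of all 7292 genes. From cluster 4 to 7, 33 rose and 18 fell, against 1049 and 1936 of all genes. The median of all genes moved from 0.22 to -0.21 and from 0.44 to -0.09 on the log2 scale. Below, changes against cluster 4 should be read relative to these medians.

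**Figure D3:**
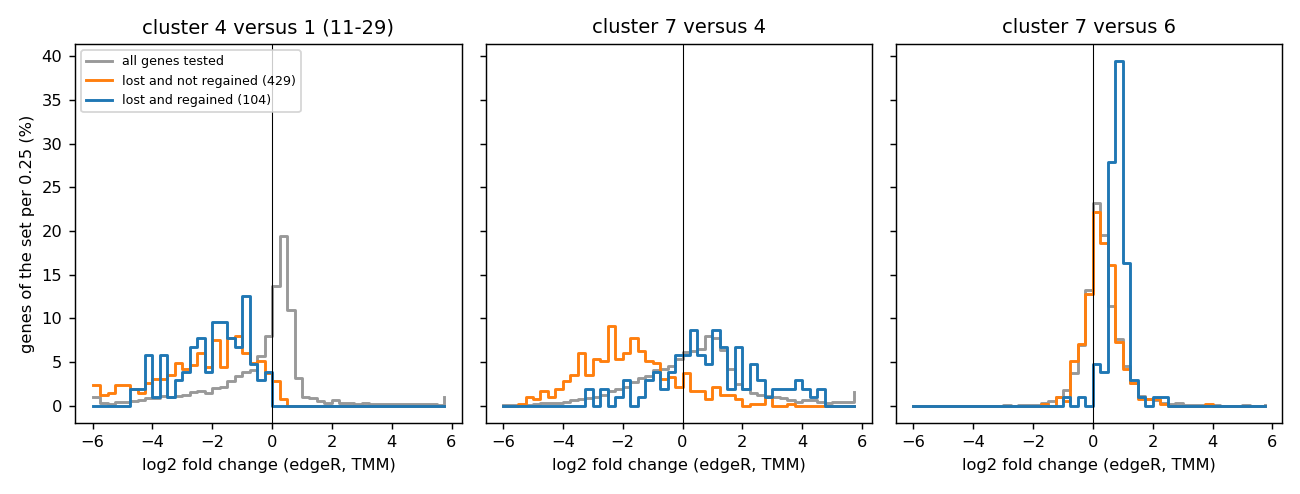
Distribution of log2 fold changes (bins of 0.25, values beyond 6 placed in the end bins) of all genes tested, of the genes lost and not regained and of the 104 genes, for cluster 4 against positions 11 to 29, cluster 7 against cluster 4 and cluster 7 against cluster 6. The 104 genes lie with the genes not regained in the first comparison (medians -1.79 and -1.96) and apart from them in the second (0.85 and -1.86). Both groups were selected for their loss and set apart by their end level, so both patterns follow in part from the selection.

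The 104 genes thus followed different courses. The 49 genes that rose from cluster 4 to 7 had fallen earlier: over clusters 2, 3, 4, 5, 6, 7 and 9 the medians of their levels were 62.3%, 39.0%, 12.2%, 13.2%, 23.5%, 40.4% and 105% of the start. The 43 genes not called stood in the same order at 98.8%, 83.2%, 42.7%, 15.8%, 17.8%, 29.8% and 95.2%. The 12 genes that fell from cluster 4 to 7 were at 108%, 103%, 67.6%, 17.4%, 9.60%, 11.1% and 95.2%, with their lowest median in cluster 6. Of these 12 genes, zfh1 was called higher in cluster 7 than in cluster 6. The 12 genes were CG2865, Pi3K92E, dre4, zfh1, Spc105R, Mcr, CHES-1-like, fus, CG8034, Pits, ttk and Ptp99A. These groups were formed on the comparison of clusters 4 and 7, so their levels there are a description. Clusters 4, 5, 6 and 7 held the lowest mean of 23, 60, 17 and 4 genes.

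**Figure D4:**
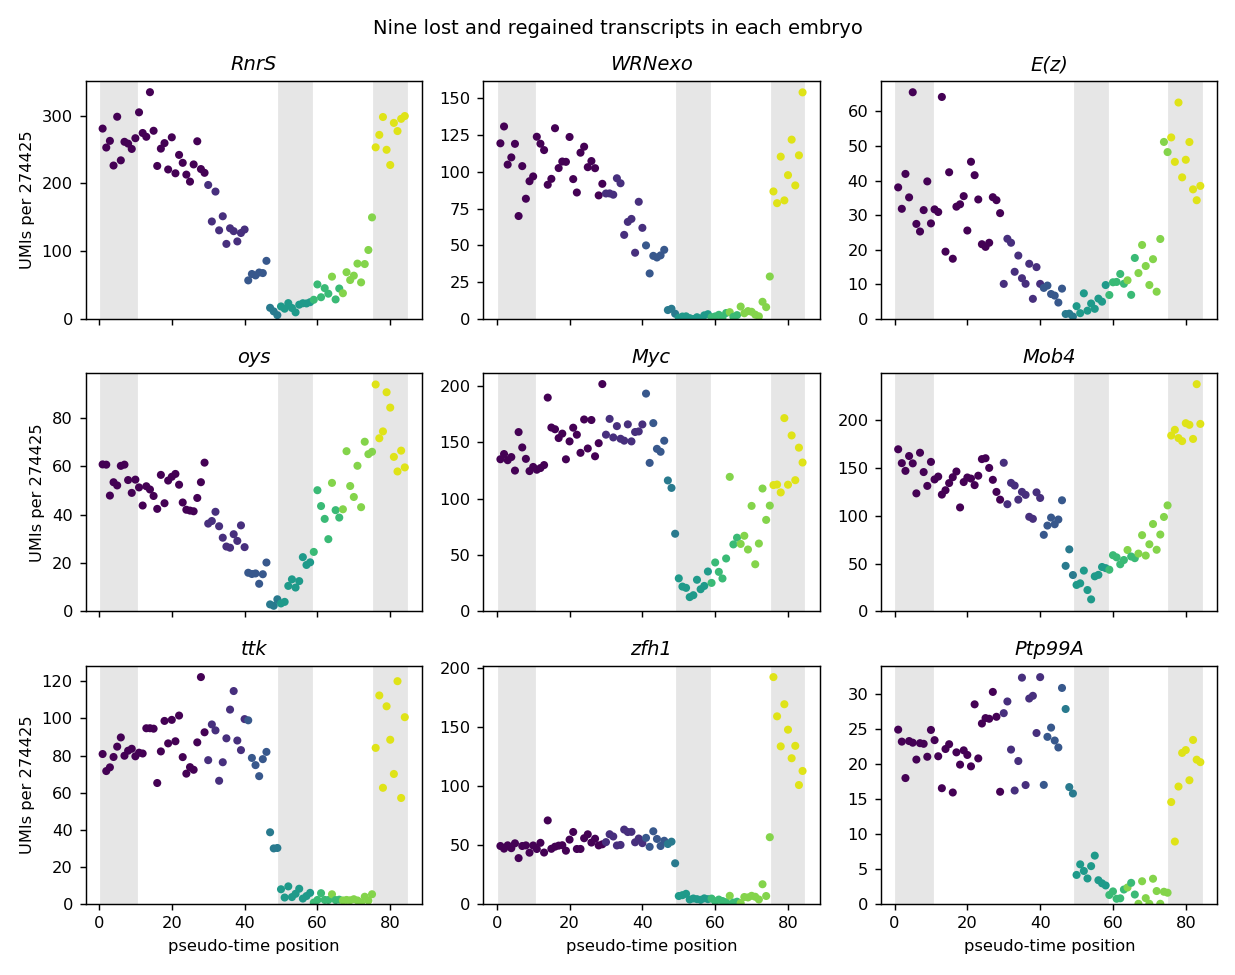
Scaled UMIs of 9 of the genes in each of the 84 embryos against pseudo-time position, with the selection windows in grey. RnrS, WRNexo, E(z) and oys were low in cluster 4, Myc and Mob4 stood between 37.99 and 116 there, and ttk, zfh1 and Ptp99A were still between 15.8 and 52.8 in cluster 4 and low in clusters 6 and 7, where zfh1 reached 56.6 in the last embryo.

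Genes are grouped below by their known roles. Of all 104 genes, 79 fell to cluster 4, 23 rose from cluster 6 to 7, and 49 rose and 12 fell from cluster 4 to 7. Counts within a role should be read beside these. The groups, and genes described beyond the fixed rule for naming, were chosen after the values were seen. Values are scaled UMIs, as the lowest, the median and the highest embryo of a group, or each of the 3 embryos of cluster 4, and errors of log2 changes are standard errors from the edgeR fit.

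DNA replication, repair and nucleotide supply was represented by 9 genes, of which 8 fell to cluster 4, 4 rose from cluster 6 to 7 and 4 rose from cluster 4 to 7. They kept a median of 9.91% in the middle and ended at 80.2% to 184% of the start. The gene with the highest mean of the 104 at positions 1 to 10 was RnrS (FBgn0011704, chromosome 2R, 11983145 to 11985393), the small subunit of ribonucleotide reductase, which makes deoxynucleotides. It had 203, 242 and 335 scaled UMIs at positions 11 to 29, and 16.5, 11.3 and 5.74 in the embryos of cluster 4. It had 28.4, 37.4 and 51.1 in cluster 6, 38.1, 66.5 and 150 in cluster 7 and 227, 277 and 300 in cluster 9. Cluster 4 lay below all other embryos outside cluster 5, clusters 6 and 7 overlapped, and cluster 9 was wholly above cluster 7. RnrS fell by 4.36 ± 0.29 on the log2 scale to cluster 4 (adjusted p = 2.1e-21) and rose by 1.06 ± 0.17 from cluster 6 to 7 (adjusted p = 3.2e-06). The second change was below the fold limit without the embryo at position 75 (0.88), with library totals (0.97) and with all 84 embryos fitted (0.95).

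WRNexo (FBgn0038608, chromosome 3R, 18364244 to 18366162), an exonuclease related to the human Werner syndrome protein, kept the lowest share of its starting level in the middle window. At positions 11 to 29 it had 83.96, 107 and 130 scaled UMIs, and in cluster 4 it had 6.09, 6.99 and 3.58. In cluster 5 the values were 0, 1.23 and 3.28, where the 1 embryo without a UMI allows a level of up to 2.69. It had 1.04, 1.77 and 4.08 in cluster 6, 1.82, 5.15 and 28.9 in cluster 7, and 78.7, 97.7 and 154 in cluster 9. The values of clusters 5, 6 and 7 overlapped, and the high value of cluster 7 was far from its median. WRNexo fell by 4.17 ± 0.36 on the log2 scale to cluster 4 (adjusted p = 2.6e-16) and rose by 2.12 ± 0.38 from cluster 6 to 7 (adjusted p = 2.7e-05).

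The DNA polymerase alpha and primase complex, which starts each new strand, contributed PolA1 and PolA2. PolA2 had 15.7, 24.4 and 32.04 at positions 11 to 29, 2.03, 1.16 and 0 in cluster 4, where the 0 allows up to 2.15, and 5.47, 9.72 and 19.8 in cluster 7. It fell by 4.20 ± 0.38 and rose again by 3.47 ± 0.41 from cluster 4 to 7 (adjusted p = 3.8e-11). PolA1 was less depleted in cluster 4 (11.3, 6.597 and 14.3) and ended at 154% of its start. It rose by 1.07 ± 0.19 on the log2 scale from cluster 6 to 7 (adjusted p = 1.4e-05). Of the MCM helicase, Mcm3, Mcm5 and dpa (Mcm4) belonged to the group. Mcm3 fell by 2.86 ± 0.36 to cluster 4 and rose by 2.33 ± 0.39 to cluster 7, while Mcm5 and dpa fell by 1.11 ± 0.18 and 1.51 ± 0.22 and changed by 0.15 ± 0.19 and 0.46 ± 0.23 to cluster 7 (adjusted p = 0.48 and 0.076). DNAlig1, which joins the strands, fell by 1.88 ± 0.29. Rrp1, an endonuclease of base excision repair, was different: it had 57.7, 59.4 and 56.6 in cluster 4, just below the range of 62.2 to 113 at positions 11 to 29 (log2 change -0.49 ± 0.19, adjusted p = 0.026), then 8.58, 11.8 and 16.96 in cluster 6, and ended at 184% of its start.

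A list of DNA replication genes, put together with the members known, had 42 genes tested, 9 of them among the 104. Of the other 33 genes, 16 fell and 1 rose to cluster 4, 3 rose from cluster 6 to 7, and 8 rose and 7 fell from cluster 4 to 7. For the whole list the median log2 change to cluster 4 was -1.43, against 0.09 for all genes. It includes the 9 members, which were chosen for their loss, so it does not describe the other 33 genes.

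Among 7 genes of chromatin and transcription machinery, 4 fell to cluster 4, 2 rose from cluster 4 to 7 and 2 fell. E(z) (FBgn0000629, chromosome 3L, 10634575 to 10638130), the methyltransferase of Polycomb repressive complex 2, had 17.4, 32.5 and 64.2 at positions 11 to 29 and 1.45, 1.55 and 0.717 in cluster 4. It had 6.95, 10.6 and 17.7 in cluster 6, 7.90, 16.3 and 51.2 in cluster 7 and 34.3, 45.4 and 62.6 in cluster 9. Cluster 4 was below clusters 6 and 7 without overlap, and below cluster 5 (1.69, 4.49 and 9.83). E(z) fell by 4.58 ± 0.58 to cluster 4 (adjusted p = 3.5e-10) and rose by 4.62 ± 0.59 from cluster 4 to 7 (adjusted p = 3.4e-10). The gene calypso, which encodes the deubiquitinase of the Polycomb complex PR-DUB, had a like course: 1.74, 2.72 and 0.717 in cluster 4, 13.6, 24.03 and 59.7 in cluster 7, and a rise of 4.42 ± 0.50. On a list of chromatin and transcription genes with 27 genes tested, E(z) was the only member, and of the other 26 genes 7 fell to cluster 4, and 10 rose and 2 fell from cluster 4 to 7.

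The histone chaperone FACT, which opens nucleosomes for polymerases, has the subunits Ssrp and dre4, and both belonged to the 104 genes. Ssrp had 154, 182 and 250 scaled UMIs at positions 11 to 29 and 51.4, 58.6 and 31.5 in cluster 4, whereas dre4 had 52.2, 73.5 and 103 and then 62.1, 64.8 and 50.9. Cluster 4 was thus well below the earlier embryos for Ssrp and mostly inside their range for dre4. Ssrp fell by 1.96 ± 0.19 (adjusted p = 9.6e-14) and dre4 changed by -0.35 ± 0.19 (adjusted p = 0.13). In cluster 6 they were at 22.1, 25.8 and 30.9 and at 7.15, 12.0 and 17.7, and dre4 fell by 1.23 ± 0.20 from cluster 4 to 7. Of the rest, the corepressor gene bon fell by 1.12 ± 0.18 to cluster 4, and chm, a histone acetyltransferase gene, was at 32.2, 32.2 and 22.2 in cluster 4 (log2 change -0.14 ± 0.17, adjusted p = 0.51).

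Chromosome segregation and cytokinesis had 6 genes, of which 4 fell to cluster 4 and 3 (Cap-D3, Spindly and Klp3A) rose from cluster 6 to 7. The centromeric histone gene cid had 46.7, 57.2 and 76.6 at positions 11 to 29, 4.35, 5.05 and 5.02 in cluster 4 and 5.44, 12.1 and 26.9 in cluster 7. It fell by 3.64 ± 0.28 (adjusted p = 1.6e-18) and rose by 2.08 ± 0.30 from cluster 4 to 7. Spc105R, whose product sits at the kinetochore above that centromere, had 50.2, 44.2 and 39.4 in cluster 4, inside the 21.6 to 64.5 of positions 11 to 29, and 3.97, 8.84 and 11.4 in cluster 6. It fell by 2.00 ± 0.26 from cluster 4 to 6 (adjusted p = 5.5e-10). Cap-D3, a condensin II subunit gene, kept 6.52% in the middle window and rose by 1.19 ± 0.23 from cluster 6 to 7 (adjusted p = 0.0001).

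None of the 6 genes for transcription factors rose from cluster 4 to 7, and 3 of them (zfh1, ttk and CHES-1-like) fell. The BTB zinc finger repressor ttk (FBgn0003870, chromosome 3R, 31713867 to 31735392), supplied by the mother and known to delay early zygotic genes, had 65.2, 87.1 and 122 at positions 11 to 29 and 38.6, 29.9 and 30.1 in cluster 4. It had 0.631, 2.07 and 5.72 in cluster 6, 0.608, 1.98 and 5.14 in cluster 7 and 57.1, 88.5 and 120 in cluster 9. No embryo of clusters 6 and 7 overlapped with cluster 4 or with cluster 9. ttk fell by 1.39 ± 0.18 to cluster 4 and fell by 3.06 ± 0.22 from cluster 4 to 7 (adjusted p = 1.5e-19), and its change from cluster 6 to 7 was 0.34 ± 0.31 (adjusted p = 0.43).

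The gene with the highest end level, relative to its start, was zfh1 (FBgn0004606, chromosome 3R, 30765926 to 30789202), a zinc finger homeodomain factor of the mesoderm, at 298%. It had 43.5, 49.8 and 70.8 at positions 11 to 29 and 50.8, 52.8 and 34.4 in cluster 4, which overlap (log2 change -0.13 ± 0.30, adjusted p = 0.74). It then had 0.998, 2.07 and 4.42 in cluster 6, 0.604, 6.29 and 56.6 in cluster 7 and 101, 134 and 193 in cluster 9. It rose by 2.42 ± 0.44 from cluster 6 to 7 (adjusted p = 2.7e-05), or by 1.67 without the embryo at position 75, which had the 56.6. On a list of patterning transcription factors, where ttk and zfh1 were the only members, 24 of the other 42 genes tested rose to cluster 4 and 3 fell, and 32 rose and 3 fell from cluster 4 to 7.

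Myc, a growth regulator on the X chromosome, had 125.5, 154 and 201.4 at positions 11 to 29 and 116, 109 and 68.8 in cluster 4, and fell by 0.63 ± 0.19 (adjusted p = 0.0041), short of the fold limit. It had 25.3, 43.4 and 65.3 in cluster 6, 41.8, 74.1 and 119 in cluster 7, and 105, 116 and 171 in cluster 9, so that the highest embryo of cluster 7 was within the range of cluster 9. REPTOR, a factor active when TORC1 is low, ended at 183% of its start and had risen by 1.00 ± 0.28 from cluster 6 to 7 (adjusted p = 0.0049), at the fold limit. CrebB fell by 1.36 ± 0.20 and CHES-1-like by 1.33 ± 0.24 to cluster 4, and CHES-1-like had 0.529, 1.62 and 2.99 in cluster 7, below its 9.86, 10.5 and 7.89 in cluster 4.

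Translation and RNA handling had 9 genes, of which 8 fell to cluster 4 and 5 rose from cluster 4 to 7. The initiation factor eIF2, which brings the initiator tRNA to the ribosome, was represented by eIF2beta and eIF2gamma. eIF2beta had 55.2, 72.7 and 93.4 at positions 11 to 29 and 8.41, 9.31 and 4.30 in cluster 4, with 25.1, 32.1 and 43.4 already in cluster 2. It fell by 3.21 ± 0.25 to cluster 4 and rose by 2.36 ± 0.25 from cluster 4 to 7. eIF2gamma had 86.1, 122 and 156, then 33.1, 28.7 and 25.1 in cluster 4 and 27.3, 47.9 and 63.4 in cluster 7, and fell by 2.10 ± 0.19. Of the other 13 genes of a list of eIF2 and eIF3 subunits, put together with the members known, none was called lower or higher in cluster 4, and 8 rose from cluster 4 to 7. The 3 members on that list of 16, eIF2beta, eIF2gamma and eIF3j, were called lower in cluster 4. They were selected for their loss, so a contrast with the other 13 genes follows in part from the selection. Cpsf5, a cleavage and polyadenylation factor gene, fell by 3.37 ± 0.23 and rose by 2.46 ± 0.24, and fus, which encodes an RNA-binding splicing regulator, fell by 2.05 ± 0.22 from cluster 4 to 7.

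The Hippo pathway, which limits growth through the kinase Warts and the coactivator Yorkie, had 4 genes counting partners of its kinases. All 4 fell to cluster 4, as did 79 of the 104 genes. GckIII, a kinase gene, had 33.5, 60.1 and 81.1 at positions 11 to 29, 7.25, 5.05 and 0.717 in cluster 4, 16.99, 27.2 and 38.3 in cluster 6 and 29.5, 47.7 and 67.7 in cluster 7. It fell by 3.56 ± 0.33 and rose by 3.86 ± 0.34 from cluster 4 to 7 (adjusted p = 8.9e-16). The kinase gene wts fell by 2.53 ± 0.23 and rose by 2.28 ± 0.24, while yki fell by 1.47 ± 0.17 and had a change of 0.00 ± 0.18 from cluster 4 to 7. Mob4 was abundant, with 109, 138 and 160 at positions 11 to 29, 47.6, 64.8 and 37.99 in cluster 4 and 58.4, 74.9 and 111 in cluster 7. Its rise from cluster 4 to 7 was 1.16 ± 0.16, and it was under the fold limit with library totals (0.62), with DESeq2's size factors (0.88) and with all 84 embryos fitted (0.79). Of 14 other genes of the pathway tested, on a list also chosen with the members known, 2 fell to cluster 4, and 2 rose and 2 fell from cluster 4 to 7.

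The largest role group, with 11 genes, was that of the endoplasmic reticulum and membrane traffic, of which 8 fell to cluster 4, 7 rose from cluster 4 to 7 and none fell. Sec61beta, a subunit of the channel through which proteins enter the endoplasmic reticulum, had 68.2, 94.5 and 130 at positions 11 to 29, 13.6, 12.8 and 12.9 in cluster 4 and 31.7, 46.6 and 77.1 in cluster 7. It fell by 2.91 ± 0.26 and rose by 2.52 ± 0.26 (adjusted p = 3.8e-13). CG33303, which encodes a subunit of the oligosaccharyltransferase that adds N-glycans, had 85.9, 110 and 138, then 19.2, 18.2 and 10.0 in cluster 4, and rose by 1.88 ± 0.18 to cluster 7. Der-1, for degradation of misfolded proteins, had 2.90, 2.33 and 1.43 in cluster 4, 0, 0.898 and 1.83 in cluster 5 (the 1 embryo at 0 allows up to 1.69) and 23.8, 31.2 and 41.1 in cluster 9. It fell by 3.57 ± 0.31 (adjusted p = 4.9e-16). gammaSnap1, of vesicle fusion, had 2.32, 1.55 and 0.717 in cluster 4, 7.38, 14.8 and 27.3 in cluster 7 and 59.4, 71.7 and 80.9 in cluster 9, which was 203% of its start. It rose by 3.69 ± 0.47 from cluster 4 to 7. On a list of endoplasmic reticulum translocation and N-glycosylation genes, again chosen with the members known, 7 of 25 genes were members, and of the other 18 genes 3 fell to cluster 4, and 5 rose and 5 fell from cluster 4 to 7.

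All 5 genes of lipid, sugar and nucleoside metabolism fell to cluster 4, and oys had the strongest early return of all 104 genes. oys (FBgn0033476, chromosome 2R, 10034595 to 10048619), a lysophospholipid acyltransferase gene, had 41.4, 50.5 and 61.6 at positions 11 to 29 and 2.90, 2.33 and 5.02 in cluster 4. It had 24.6, 38.8 and 50.2 in cluster 6 and 42.3, 56.7 and 70.2 in cluster 7, so that cluster 7 overlapped with the level at the start. It rose by 4.07 ± 0.27 from cluster 4 to 6 (adjusted p = 6.3e-21) and by 4.72 ± 0.26 from cluster 4 to 7 (adjusted p = 3.8e-25). Papss, which makes the sulfate donor PAPS, fell by 3.73 ± 0.27 and rose by 1.30 ± 0.18 from cluster 6 to 7 (adjusted p = 1.0e-07). ATPCL, which supplies acetyl-CoA for lipids, was later: it had 75.5, 122 and 141 at positions 11 to 29, 44.4, 38.4 and 17.2 in cluster 4, 11.0, 19.5 and 26.9 in cluster 6 and 73.1, 113 and 117 in cluster 9, with a fall of 1.76 ± 0.22. It was the only member on a metabolism list of 22 genes tested, where 5 of the other 21 genes fell and 1 rose to cluster 4.

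Among 10 genes of signalling and adhesion, 6 fell to cluster 4, 6 rose from cluster 4 to 7 and 3 fell. The ubiquitin ligase gene mib1, needed for uptake of Notch ligands, had 13.6, 21.4 and 37.5 at positions 11 to 29 and 6.03, 9.43 and 12.2 already in cluster 2, which do not overlap. It had 2.32, 1.55 and 4.30 in cluster 4 and 8.61, 16.3 and 23.6 in cluster 7, and rose by 3.34 ± 0.35 (adjusted p = 3.7e-13). mib1 was the only member on a Notch list of 19 genes tested, where none of the other 18 genes fell and 7 rose to cluster 4. The metalloprotease gene Meltrin had 0.290, 1.94 and 3.58 in cluster 4 and 9.84, 12.1 and 42.7 in cluster 7, and rose by 1.53 ± 0.26 from cluster 6 to 7 (adjusted p = 1.0e-05). ihog, for a Hedgehog co-receptor, rose by 1.19 ± 0.31 from cluster 4 to 7 and ended at 152% of its start. RapGAP1, which turns off Rap1, came back early, with 15.2, 31.3 and 54.7 in cluster 6, and its rise of 1.00 ± 0.26 from cluster 4 to 7 was at the fold limit.

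The other side of this group was Pi3K92E, the catalytic subunit of PI3-kinase in insulin signalling, and Ptp99A, a receptor tyrosine phosphatase. Pi3K92E had 101, 126 and 143 at positions 11 to 29, 88.2, 76.1 and 50.2 in cluster 4, 9.47, 12.5 and 16.5 in cluster 6 and 15.3, 21.5 and 35.6 in cluster 7. It fell by 2.07 ± 0.18 from cluster 4 to 6 (adjusted p = 4.2e-16) and was back at 110, 116 and 147 in cluster 9. Ptp99A had 27.9, 16.7 and 15.8 in cluster 4, inside the range of 15.9 to 30.3 at positions 11 to 29 except for 1 embryo just under it, and 0.715, 1.32 and 2.99 in cluster 6. It fell by 3.14 ± 0.29 from cluster 4 to 7 (adjusted p = 4.7e-15). Of 5 genes for actin and cell shape, 4 fell to cluster 4. Hem, a subunit of the WAVE complex, had 1.45, 1.16 and 1.43 in cluster 4, below every embryo of cluster 5 (4.13, 5.39 and 10.0), and rose by 4.07 ± 0.35 to cluster 7, and it was the only gene of this group that rose.

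For 32 genes no role is given here. Of them 24 fell to cluster 4, 8 rose from cluster 6 to 7, and 17 rose and 2 (CG2865 and CG8034) fell from cluster 4 to 7. CG2865, on the X chromosome, was the most abundant of these, with 196, 249 and 289 at positions 11 to 29 and 198, 186 and 116 in cluster 4. It had 20.2, 31.5 and 53.0 in cluster 6, 28.1, 58.1 and 72.8 in cluster 7 and 284, 381 and 447 in cluster 9, with cluster 9 above all but the highest embryo of positions 11 to 29. It fell by 1.92 ± 0.17 from cluster 4 to 6 (adjusted p = 7.0e-16), and its change to cluster 4 was -0.54 ± 0.15. CG8034, also X-linked, fell by 2.51 ± 0.34 from cluster 4 to 7 and ended at 156% of its start. CG9135 and CG3702 had 63.8, 61.3 and 25.1, and 34.5, 43.9 and 25.1 in cluster 4, and fell by 1.98 ± 0.20 and 1.75 ± 0.18. CG8818, CG14767 and Sou ended at 174%, 170% and 149% of their start and rose by 2.35 ± 0.21, 1.52 ± 0.20 and 1.37 ± 0.24 from cluster 4 to 7. CG15387, CG18596 and CG12093 were among the lowest in the middle, at 4.47%, 5.15% and 5.75%, with falls to cluster 4 of 2.50 ± 0.27, 2.74 ± 0.33 and 3.17 ± 0.33.

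The embryos of the last cluster came from all collection intervals, and flies can hold back eggs, so the interval is not the age: 3 of its 9 embryos came from the 0 to 1 h plates, 1 from 1 to 2 h and 5 from 2 to 3 h. The share of UMIs on the 104 genes was 2.23% to 2.52% in the 3 embryos of the first interval, 2.37% in that of the second and 2.08% to 2.31% in those of the third. These embryos are the last window of the selection, so high shares there follow from it and are given as a description. The 2 cages also gave overlapping values, 2.08% to 2.52% in cage A (n = 4) and 2.15% to 2.37% in cage B (n = 5) in cluster 9, 0.251% to 0.362% (n = 4) and 0.223% to 0.322% (n = 5) in cluster 5, and 0.553% to 0.903% (n = 5) and 0.562% to 1.11% (n = 5) in cluster 7. With the cage in the model, 79 genes fell to cluster 4, 23 rose from cluster 6 to 7, and 48 rose and 12 fell from cluster 4 to 7.

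Whether females and males differed in these genes was tested in 61 genotyped embryos (30 females and 31 males) with the cluster in the model, before (clusters 1 to 4) and after (clusters 5 to 9) the major wave. In clusters 5 to 9, 1 of the 104 genes was higher in females (0.491% of 7541 genes were) and 1 was lower (0.199%), at an adjusted p below 0.01. GCS1 (chromosome X, 11344506 to 11348001), a glucosidase gene that trims N-glycans, had 35.2, 37.9 and 44.6 in the 5 females of cluster 9 and 18.9, 20.8 and 24.4 in its 4 males, without overlap. The log2 ratio of females to males was 0.64 ± 0.13 (adjusted p = 0.0011, edgeR). zfh1, on 3R, had 101, 124 and 148 in these females and 134, 164 and 193 in these males, with overlap, and a ratio of -0.83 ± 0.19 (adjusted p = 0.0055, edgeR). The male at position 75 carried the zfh1 value of 56.6, and without it the ratio was -0.36 (adjusted p = 0.22), whereas GCS1 stayed at 0.75 (adjusted p = 8.0e-05). Without that embryo 3 genes were called: GCS1, CG2865 and CG14232. In cluster 9 the males were at positions 76 to 79 and the females at positions 80 to 84. In cluster 6 the males were at positions 59 to 63 and the females at positions 65 to 66. Within these clusters sex and place in pseudo-time cannot be told apart.

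In clusters 1 to 4 none of the 104 genes was called in edgeR or in DESeq2. Of all genes, 0% were called higher and 0.0133% lower. At an unadjusted p below 0.05 in edgeR, 2 of the 104 genes were higher and 1 lower in females, against 280 and 70 of all 7541 genes. The difference between late and early ratios was called for none of the 104 genes by edgeR or DESeq2 either. Among all genes 0.0398% were called higher and 0.0133% lower. With an unadjusted p below 0.05 in edgeR, 8 of the 104 genes were higher and 5 lower, against 228 and 303 of all 7541 genes. As a description, the 17 X-linked genes had a median log2 ratio of females to males of 0.25 in clusters 5 to 9. Of these 17 genes, 15 were above 0. The median was 0.10 for all X-linked genes, with 861 of 1316 above 0. It was 0.04 for X-linked genes that were not regained, with 57 of 102 above 0. In clusters 1 to 4 the median of the 17 genes was 0.04. The 86 autosomal genes had a median of -0.03 in clusters 5 to 9, with 31 above 0. For all autosomal genes it was -0.02, with 2779 of 6195 above 0. The direction of the 86 genes turned without the embryo at position 75, where their median was 0.04 and 55 were above 0. Without that embryo the 17 X-linked genes had a median of 0.28, again with 15 above 0.

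**Figure D5:**
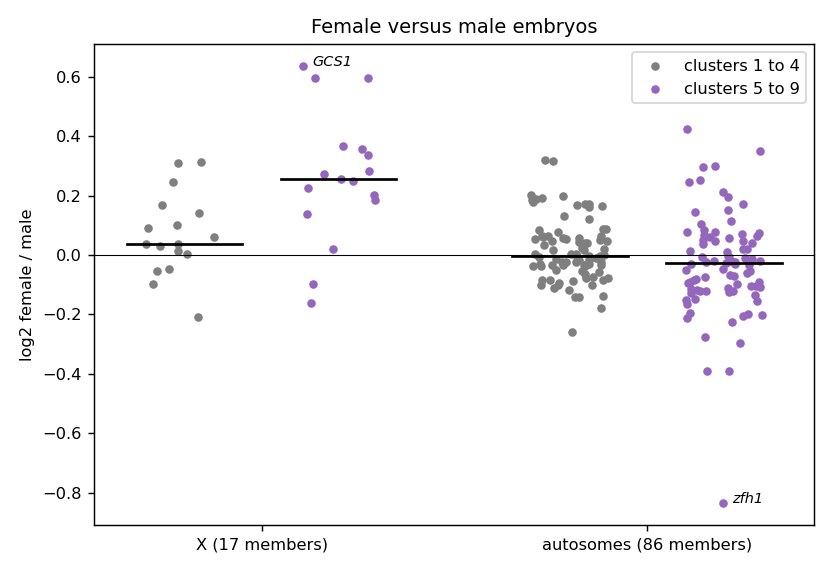
Log2 ratio of females to males of each of the 104 genes with a known chromosome (17 on the X, 86 on autosomes), in clusters 1 to 4 and in clusters 5 to 9; each point is 1 gene and the black line is the median. The X-linked genes have medians of 0.04 and 0.25, the autosomal median of -0.03 in clusters 5 to 9 turns to 0.04 without the embryo at position 75, and GCS1 and zfh1 are the genes called.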

How the data were processed

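The authors mapped the reads to the Drosophila genome (release 6 of the BDGP assembly) and counted UMIs with STAR 2.7.8a (STARsolo). They deposited raw UMI counts of 2 libraries, used only for the closing section since barcodes were not assigned to embryos, and a table with another unit, in which the authors had scaled each embryo's counts down to the smallest library and added 0.1. Here 0.1 was subtracted and whole counts were recovered (100% of values within 0.0001). Positions follow the columns. Clusters and sexes come from the supplementary tables of the study, and cage and collection interval from the embryo names. Counts were compared between clusters with edgeR 4.0.16 (TMM factors, at least 3 counts in at least 5 embryos), with DESeq2 1.42.0, other filters, other scalings, the cage, all 84 embryos and left-out embryos as alternatives. The scripts were tested on simulated data. R 4.3.3 and Python 3.11.15 were used. Genes named are the 12 highest at positions 1 to 10, the 12 with the highest end level and the 8 with the lowest middle level relative to the start, those on gene lists, those called between sexes and those at the limits. The genes and lists were chosen with earlier results of these data known. Replicates are separate embryos. Promoter motifs were not analysed here.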

Additional observations from a re-analysis of the deposited data

Results flagged for a closer look

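In 8 of 78 sets of 4 to 10 embryos examined, for the 12 most abundant genes and their sum, a single embryo lay far from the rest of its group. Chance gives about 1 in 20 where the embryos of a group have no trend and the sets are independent. Levels within a cluster can change along pseudo-time, as in cluster 7, so this rate is only a rough guide. CG2865 had 53.0 scaled UMIs in 1 embryo of cluster 6, against 20.2 to 32.8 in the others. In cluster 7, Ssrp had 85.8 in 1 embryo (others 30.2 to 59.4), CG9135 had 149.1 (64.0 to 99.9) and ATPCL had 57.8 (14.5 to 35.7). Mob4 had 237.4 in 1 embryo of cluster 9 (178 to 197), and Pi3K92E had 183.0 in 1 embryo of cluster 3 (125 to 143). At positions 1 to 10, the lowest embryo had 73.6 for CG3702 (103 to 134) and 77.2 for CG33303 (103 to 125).

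The raw counts were not used in any comparison. Among barcodes with at least 250000 UMIs, the 104 genes held a median of 1.81% of the UMIs in library 1 (62 barcodes, 0.251% to 2.49%) and 1.86% in library 2 (60 barcodes, 0.0934% to 2.78%). The lowest and highest share of library 2 are outside the range of the 84 ordered embryos (0.223% to 2.52%), and these barcodes include embryos outside the order.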

How the results depend on the processing

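Of 112 alternatives to 13 counts, 102 stayed within 1.5 times the main count. A starting mean of 10 or 40 in place of 20 gave 163 or 45 genes, and an end level of 100% or 60% gave 52 or 161. From cluster 4 to 6, 36 genes fell with library totals (22 with TMM), against 1961 (1472 with TMM) of all 7292 genes. From cluster 6 to 7, 15 rose with library totals, 13 with all 84 embryos fitted and 15 without the embryo at position 75, in place of 23. Between the sexes in clusters 5 to 9, DESeq2 called 4 genes (GCS1, zfh1, CG2865 and Mcm3) and the fit without cluster 5 called 1 (GCS1), in place of 2. Without each embryo of cluster 4 in turn, 56 to 64 genes fell from cluster 3 to 4, 75 to 82 from positions 11 to 29 to cluster 4, 24 to 27 rose and 19 to 26 fell from cluster 4 to 6, and 45 to 51 rose and 11 to 13 fell from cluster 4 to 7. TMM-scaled values gave 123 genes by the selection (96 shared) and window medians 105 (97 shared). For 69 single-gene results, none of 684 alternatives turned the direction and 62, in 17 results, lost the call. The cause was not tested. No paired analysis was possible because embryos of different clusters share no replicate number. Low counts limit cluster 4, with 3 embryos.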
